A study of Mus musculus with 12 samples.

Results

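The response of anti-CD3-stimulated CD8+ T cells to IFN-4a was read on 6 of the 12 arrays of the series. It is the per-gene difference between 3 arrays of cells given an anti-CD3 antibody together with IFN-4a and 3 arrays of cells given the anti-CD3 antibody alone. The anti-CD3 antibody binds the T cell receptor complex and stands in for antigen. IFN-4a is the type I interferon of the series. The other 6 arrays hold resting cells, which received PBS with IFN-4a (3 arrays) or PBS only (3 arrays). All cells were CD8+ lymphocytes from spleens of C57BL/6 mice, purified with a CD8a+ T cell isolation kit and kept for 6 h. No genotype other than the strain is named, and the ages of the animals and the dose of either agent are not stated in those labels. Arrays were assigned to groups by their titles. The titles number the replicates and name no animal or culture, so the p-values weigh differences against the spread of these samples only. That spread may be technical.

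Type I interferons bind a receptor that is present on almost all nucleated cells. The receptor's kinases activate a transcription factor complex that includes STAT2 and IRF9 and binds interferon-stimulated response elements in the promoters of antiviral genes. In CD8+ T cells, type I interferon delivered together with signals from the T cell receptor and costimulation acts as an additional signal that favours cytolytic effectors and interferon gamma.

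The authors deposited log values, read here as log2, in which each row had been centred on its 12-array median. A value of 0 is therefore a row's own median, and levels cannot be compared between genes. Array medians ran between -0.0157 and 0.0165. Across 22180 genes, arrays of the same group correlated at 0.734 to 0.863 and arrays of different groups at 0.538 at most. The arrays' number limits the precision. Changes are given as log2 differences, each between the means of 3 arrays and 3. Their standard errors (SE) and p-values come from a single fit of all 12 arrays. The resting arrays therefore enter the estimate of spread for the stimulated cells too. Fold sizes assume that the log base is 2. A gene was called where the moderated test of limma, adjusted by Benjamini-Hochberg over all 22180 genes, gave p under 0.05. A gene said to have risen or fallen passed that test.

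Addition of IFN-4a to anti-CD3 changed 771 genes (3.48% of those tested). Of these, 447 rose (2.02%) and 324 fell (1.46%). The increases were the larger changes: their median was 0.53 on the log2 scale, 117 of them reached a log2 change of 1, and the highest was 5.01. The median decrease was -0.32, no gene fell by as much as 1, and 26 fell by at least 0.5. After quantile normalization of the centred values 15 genes fell by at least 1 and 100 by at least 0.5, with a median decrease of -0.35. The values of the 3 arrays with IFN-4a and the 3 without it did not overlap in 4688 genes (21.1% of all), among them each of the 771 called genes. The count of raised genes stayed between 344 and 441 when any 1 array was left out. For lowered genes that count was 133 or 154 when the first or the third array of the IFN-4a group was dropped, and 138 or 119 when the second or the third anti-CD3 array was, so it depends on single arrays. All called genes numbered 498 when the third array of the IFN-4a group was dropped and 489 when the second anti-CD3 array was. With only the 2 stimulated groups fitted, 543 genes were called, 374 higher and 169 lower. In bulk RNA, a change in the number of cells of a type and a change in RNA per cell cannot be told apart.

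Antiviral effector genes rose together. Of 32 measured members of that list, 29 rose and none fell, against the 2.02% and 1.46% of all genes, and the list's median change was 2.22 where the median of all genes was near 0, at -0.002. The counts of each list below are to be read against the same shares. Mx2, a dynamin-like GTPase gene, read 1.93, 1.99 and 2.04 on the anti-CD3 with IFN-4a arrays and -2.29, -2.39 and -2.55 on the anti-CD3 arrays. The replicates lay close together and the groups far apart. The difference was 4.40 (21.1-fold, SE 0.10, adjusted p = 3.52e-12). Ifit1, whose product binds viral RNA that lacks host cap methylation, read 1.88, 1.92 and 1.87 with IFN-4a and -2.16, -1.87 and -1.93 without it, a rise of 3.88 (14.7-fold, SE 0.07, adjusted p = 9.94e-13). Mx1, the related nuclear GTPase, rose by 4.15, although laboratory strains such as C57BL/6 carry a defective Mx1 allele. Rsad2, which encodes viperin, rose by 4.10, its neighbour Cmpk2, a mitochondrial nucleotide kinase gene, by 3.67, and Isg15, a ubiquitin-like modifier gene, by 3.26. The oligoadenylate synthetase genes Oas2, Oas3 and Oasl1, of which Oas2 and Oas3 make the activator of RNase L, rose by 4.11, 3.17 and 4.04.

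The 3 antiviral members that did not pass the test had changes between -0.08 (Ifitm1) and 0.44 (Ifit3). Ifit3 and Ifit3b are near-identical paralogs, and Ifit3b was measured at a change of 2.60; RNA of either can bind probes of the other, and both values are uncertain. Such cross-binding may also occur within the Trim30, Slfn, Ifi200, Oas1, Gbp and granzyme families, and it was not tested. Among members of such families, Trim30c had the largest increase of all named genes at 5.01 (2.58, 2.45 and 2.45 with IFN-4a, -2.77, -2.39 and -2.40 without it). Slfn5 rose by 4.27 and Ifi204, of the interferon-inducible p200 family of DNA sensors, by 4.19. Ccrl2, an atypical chemokine receptor gene, rose by 3.49.

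**Figure D1:**
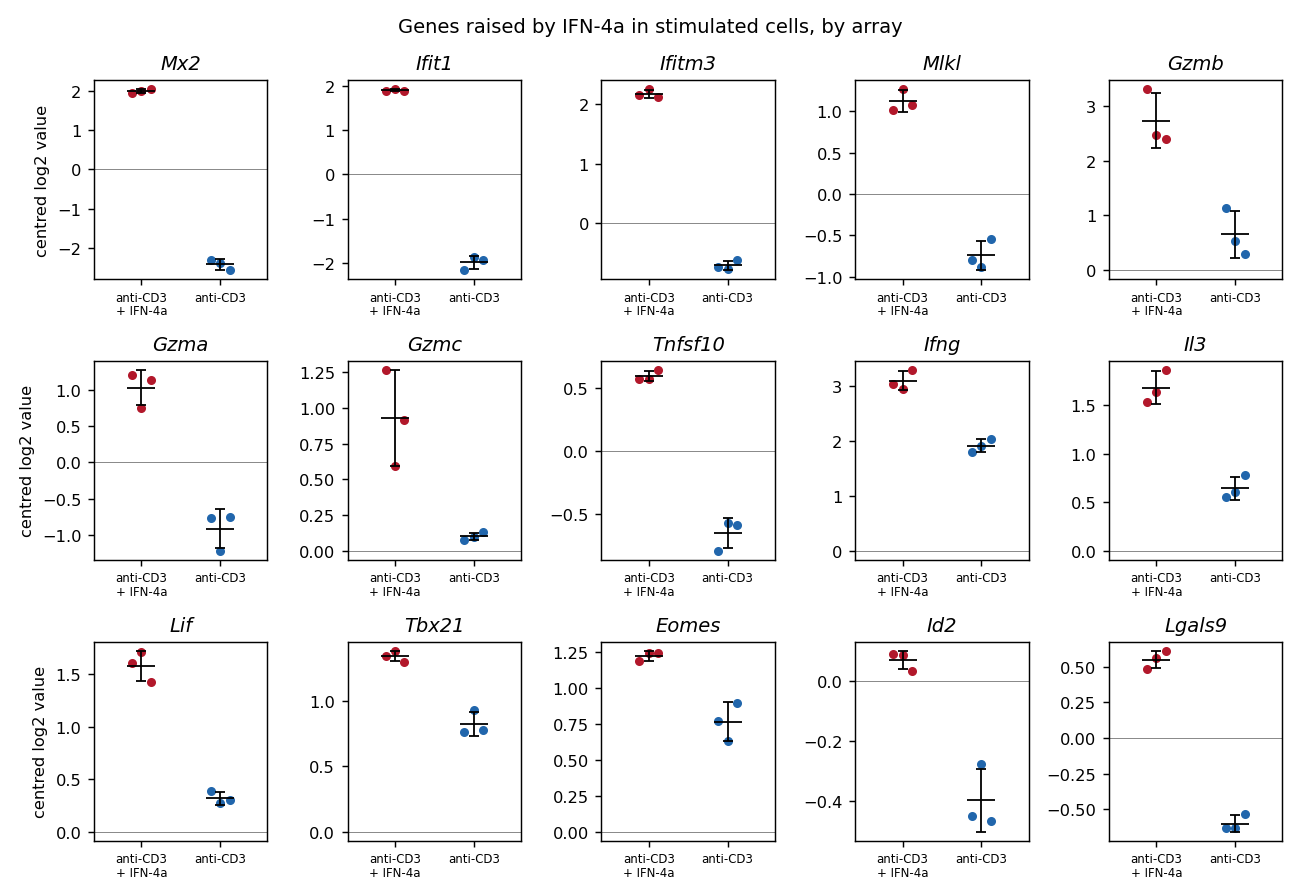
Deposited log2 values, centred per row, of 15 raised genes on the 3 anti-CD3 with IFN-4a arrays and the 3 anti-CD3 arrays; points are arrays, bars are group means and error bars are SD over 3 arrays. No gene shown has overlapping groups. The same is true of every called gene and of 21.1% of all genes. The separation is 4.40 for Mx2, 2.08 for Gzmb with a wider spread between arrays, and 0.46 for Eomes.

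Promoters of 8 genes are shown because they cover strong antiviral targets (Ifit1, Isg15, Rsad2), raised effector and immunoregulatory genes with the same element (Gzma, Lgals9), a GTPase gene that did not pass the test here (Igtp), and raised genes with no such element in the window (Ifng, Gzmb). They were picked after their values had been seen. Each is the 150 bases before the annotated start, 5′ to 3′ on the gene's strand, from RefSeq on GRCm38.p6, with capitals for a core of the interferon-stimulated response element: GAAA, any 2 bases and GAAA again, or on the other strand TTTC, any 2 bases and TTTC.

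The Ifit1 window (chr19:34640739-34640888, plus strand) holds 2 matches, which begin 104 and 85 bases before the start. In the Isg15 window (chr4:156200819-156200968, minus strand) 3 overlapping matches lie between 78 and 66 bases before it, counted at their first base. Rsad2 (chr12:26456453-26456602, minus strand) has 1 match at 120 bases, Gzma (chr13:113100982-113101131, minus strand) 1 at 97 bases, Lgals9 (chr11:78984925-78985074, minus strand) 1 at 55 bases and Igtp (chr11:58199406-58199555, plus strand) 1 at 34 bases. The windows of Ifng (chr10:118440896-118441045, plus strand) and Gzmb (chr14:56262335-56262484, minus strand) hold none.
Ifit1: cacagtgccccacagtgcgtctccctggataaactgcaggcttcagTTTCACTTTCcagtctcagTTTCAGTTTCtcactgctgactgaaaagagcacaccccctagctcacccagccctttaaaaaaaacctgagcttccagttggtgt
Isg15: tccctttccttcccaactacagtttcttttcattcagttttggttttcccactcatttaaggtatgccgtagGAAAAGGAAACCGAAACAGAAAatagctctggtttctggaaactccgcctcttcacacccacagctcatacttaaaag
Rsad2: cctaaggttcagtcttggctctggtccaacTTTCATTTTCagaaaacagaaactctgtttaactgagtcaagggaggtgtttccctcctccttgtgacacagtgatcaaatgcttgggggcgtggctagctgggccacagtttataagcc
Gzma: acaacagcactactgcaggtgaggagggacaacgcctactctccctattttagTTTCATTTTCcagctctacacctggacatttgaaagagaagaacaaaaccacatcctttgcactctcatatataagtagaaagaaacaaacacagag
Lgals9: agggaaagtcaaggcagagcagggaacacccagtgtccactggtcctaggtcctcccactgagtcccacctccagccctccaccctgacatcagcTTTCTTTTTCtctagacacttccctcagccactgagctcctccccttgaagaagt
Igtp: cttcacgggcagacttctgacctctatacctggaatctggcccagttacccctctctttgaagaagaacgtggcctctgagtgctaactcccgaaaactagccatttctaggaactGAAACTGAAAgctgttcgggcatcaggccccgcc
Ifng: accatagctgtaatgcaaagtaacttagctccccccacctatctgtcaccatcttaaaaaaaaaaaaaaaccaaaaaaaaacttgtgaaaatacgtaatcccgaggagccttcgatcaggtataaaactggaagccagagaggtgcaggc
Gzmb: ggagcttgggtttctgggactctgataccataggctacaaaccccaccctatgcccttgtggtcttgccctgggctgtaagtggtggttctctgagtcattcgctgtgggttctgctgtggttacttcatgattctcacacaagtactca

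Over the whole RefSeq window, 250 bases before to 50 after a start, this element occurred on either strand in 62 of the 359 raised genes that have a promoter in the table (17.3%). Among raised genes with a log2 change of at least 1 it occurred in 31 of 94 (33.0%), and among the other raised genes in 31 of 265 (11.7%). It was found in 5 of 258 lowered genes (1.94%) and in 657 of all 16918 tested genes with a promoter (3.88%). For comparison, TTC and GAA separated by any 3 bases, a palindrome bound by factors of the STAT family, occurred on either strand, overlapping the first motif or not, in 41 of 359 raised genes (11.4%), 16 of 258 lowered genes (6.2%) and 1544 of 16918 genes overall (9.13%). These shares describe letters in a window and were not tested.

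Genes for nucleic acid sensors and for parts of the interferon pathway itself rose less uniformly. Of 16 sensor genes 9 rose and none fell, with a list median of 0.84. Dhx58, which encodes the RNA helicase LGP2, rose by 3.32, Ifih1, which encodes MDA5, by 3.01, Ddx60 by 2.97, the endosomal RNA receptor gene Tlr7 by 2.77, and Ddx58, which encodes RIG-I, by 1.83. Sensor genes that did not pass the test ran between -0.15 (Mavs) and 0.25 (Tlr9). In the interferon signalling and feedback list of 23 genes, 6 rose and none fell, and the median was 0.03. Usp18, the brake on receptor signalling, rose by 3.47, the transcription factor gene Irf7 by 2.32, Stat2 by 1.53, its partner Irf9 by 0.66, the feedback inhibitor gene Cish by 0.56 and the kinase gene Jak2 by 0.28. The call of Jak2 was lost when array 3 of either stimulated group was dropped. The remaining 17 lay between -0.18 (Ifngr2) and 0.18 (Irf2).

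Genes for MHC class I presentation showed small increases. Of 19 measured genes, 6 rose and none fell, with a list median of 0.20. The immunoproteasome genes Psmb10 and Psmb8 rose by 0.70 and 0.46, the transactivator gene Nlrc5 by 0.53, the peptide-loading genes Tapbp and Tap1 by 0.51 and 0.27, and H2-T23, which encodes the class Ib molecule Qa-1, by 0.41 (adjusted p = 0.0129, lost when array 3 of either stimulated group was dropped). Nlrc5 read 0.22, 0.29 and 0.35 with IFN-4a and -0.17, -0.29 and -0.26 without it, so the groups stood apart although the change was small. Outside the list, H2-T24 rose by 1.77.

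Interferon-induced GTPase genes, which attack vacuoles of intracellular pathogens, had small changes: 7 of 13 rose, none fell, and the median was 0.28. Gbp9 had the largest change at 0.88 (0.47, 0.40 and 0.53 with IFN-4a against -0.40, -0.43 and -0.41 without it, adjusted p = 5.43e-07). Gbp11, Gbp10, Gbp3, Iigp1 and Gbp7 rose by 0.61, 0.45, 0.43, 0.36 and 0.28, with adjusted p between 0.00655 and 0.0466. The calls of Gbp11, Gbp3, Iigp1 and Gbp7 were each lost when any of at least 3 single arrays was dropped. The 6 others lay between -0.23 (Gbp8) and 0.29 (Irgm1).

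Cell death genes moved one way where they moved. Of 25 measured, 7 rose and none fell, with a median of 0.13. Daxx, a nuclear body and apoptosis adaptor gene, rose by 2.05, and the nuclear body genes Pml and Sp100 by 1.43 and 0.80. Mlkl, the executioner of necroptosis, read 1.02, 1.27 and 1.08 with IFN-4a and -0.80, -0.88 and -0.54 without it, a rise of 1.86 (3.64-fold, SE 0.10, adjusted p = 4.42e-08). Casp4, also known as caspase-11, rose by 0.69 and the initiator caspase gene Casp8 by 0.64. The remaining raised member was Cflar, by 0.36, which encodes an inhibitor of caspase-8; it lies outside the rule for named genes and was named after its value was seen. Ripk3, which encodes the kinase that activates MLKL, was measured at -0.20 and was not called.

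Among 23 cytotoxic effector genes, 5 rose and none fell, and the list's median was -0.04, close to that of all genes. Gzmb, which encodes the serine protease granzyme B, read 3.31, 2.48 and 2.40 on the anti-CD3 with IFN-4a arrays and 1.14, 0.52 and 0.29 on the anti-CD3 arrays. The first array of each group was the highest and the groups did not overlap; the change was 2.08 (4.23-fold, SE 0.24, adjusted p = 8.98e-05). Gzma, which encodes granzyme A, read 1.22, 0.76 and 1.14 with IFN-4a and -0.77, -1.22 and -0.76 without it. Its rise was 1.95 (3.87-fold, SE 0.20, adjusted p = 2.43e-05), and the groups again did not overlap. Gzmc, for another granzyme, read 1.27, 0.59 and 0.92 with IFN-4a and 0.08, 0.09 and 0.13 without it, a rise of 0.83 (adjusted p = 0.000761).

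Tnfsf10, which encodes the death ligand TRAIL, rose by 1.24 (0.57, 0.57 and 0.64 against -0.79, -0.57 and -0.59, adjusted p = 2.67e-08). Nkg7, a cytotoxic granule membrane gene, rose by 0.24 (adjusted p = 0.0268), a call that was lost when any 1 of the 6 arrays compared was dropped. Prf1, which encodes the pore-forming protein perforin, read 0.62, 0.75 and 0.61 with IFN-4a and 0.76, 0.76 and 0.79 without it. That difference of -0.11 did not pass the test (adjusted p = 0.461). The 18 cytotoxic genes that were not called ran between -0.18 (Serpinb9) and 0.18 (Gzmm).

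Cytokine genes showed a restricted increase: 5 of 29 rose and none fell, with a median of 0.095. Under quantile normalization of the arrays 5 rose and 3 fell. Ifng, which encodes interferon gamma, read 3.05, 2.95 and 3.30 on the anti-CD3 with IFN-4a arrays and 1.80, 1.92 and 2.04 on the anti-CD3 arrays. Every array with IFN-4a was above every array without it, and the change was 1.18 (2.27-fold, SE 0.09, adjusted p = 1.62e-06). After quantile normalization the change of Ifng was 0.66 (adjusted p = 0.000148). Lif, for a cytokine of the interleukin 6 family, rose by 1.26 (1.60, 1.71 and 1.42 against 0.38, 0.27 and 0.30, adjusted p = 1.83e-06). Il3, for a growth factor of myeloid progenitors, rose by 1.03 (1.53, 1.64 and 1.86 against 0.55, 0.61 and 0.78, adjusted p = 2.03e-06). Osm, for a relative of LIF, rose by 0.40 (adjusted p = 0.0139), a call that was lost when array 3 of either group was dropped.

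Cxcl10, the chemokine that recruits CXCR3-bearing T cells, rose by 2.09 (1.08, 1.31 and 1.20 against -0.86, -0.77 and -1.06, adjusted p = 3.24e-09). Some other products of activated CD8+ T cells had no called difference. Il2, for the T cell growth factor interleukin 2, averaged 1.32 ± 0.31 with IFN-4a and 1.19 ± 0.19 without it (SD, n = 3 arrays each), with overlapping arrays (difference 0.13, SE 0.14, limma adjusted p = 0.727). Tnf, Ccl3 and Xcl1, named after their values had been seen, differed by -0.003 (SE 0.08), -0.001 (SE 0.22) and -0.04 (SE 0.16), and their arrays overlapped. After quantile normalization these differences were -0.21, -0.22 and -0.32, and those of Ccl3 (adjusted p = 0.015) and Xcl1 (adjusted p = 0.0313) were called. The 24 cytokine and chemokine genes that were not called ran between -0.33 (Ccl9) and 0.29 (Csf1).

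Receptor genes moved in both directions. Of 25 measured, 3 rose and 2 fell, with a median of 0.01, where 2.02% of all genes rose and 1.46% fell. Under quantile normalization 3 of the 25 rose and 3 fell. The interleukin 18 receptor chain genes Il18r1 and Il18rap rose by 0.55 and 0.53, and Il10ra, for the ligand-binding chain of the interleukin 10 receptor, by 0.47. Il18rap read 0.19, 0.27 and 0.13 with IFN-4a against -0.36, -0.38 and -0.26 without it. Il27ra, an interleukin 27 receptor chain gene, fell by 0.33 (-0.39, -0.37 and -0.36 with IFN-4a), and Ccr4, a chemokine receptor gene, fell by 0.53 (adjusted p = 0.032). The Ccr4 call was lost when array 2 or 3 with IFN-4a or array 1 or 3 without it was dropped. Il2ra, which encodes the high-affinity chain of the interleukin 2 receptor, read 1.47, 1.32 and 1.36 with IFN-4a and 1.36, 1.37 and 1.41 without it. That difference was 0.01 (SE 0.13) and the groups overlapped.

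Among 25 transcription factor genes of effector and memory cells, 3 rose and none fell, with a median of -0.05. Tbx21, which encodes T-bet, a factor of effector differentiation, read 1.35, 1.38 and 1.30 on the anti-CD3 with IFN-4a arrays and 0.76, 0.93 and 0.77 on the anti-CD3 arrays (0.52, 1.44-fold, SE 0.10, adjusted p = 0.00945). Eomes, for the related T-box factor eomesodermin, read 1.19, 1.25 and 1.25 against 0.77, 0.63 and 0.90 (0.46, SE 0.09, adjusted p = 0.00719). Id2, an inhibitor of E proteins that favours effector cells, read 0.09, 0.08 and 0.03 against -0.45, -0.28 and -0.46 (0.46, SE 0.06, adjusted p = 0.000507). In each of these genes, as in every raised gene, the 3 arrays with IFN-4a lay above the 3 without it. The 22 genes that were not called ran between -0.26 (Bcl6, a repressor of effector fate) and 0.14 (Zeb1). Irf4, whose level follows the strength of T cell receptor signals, had -0.19 (SE 0.10, adjusted p = 0.404), and -0.38 after quantile normalization, where it was called lower (adjusted p = 0.0391).

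None of 26 measured genes in the list of activation-induced transcription factors passed limma's test. At an unadjusted p under 0.05 there were 5 higher and 0 lower, where 15.1% of all genes had such a p. Changes ran between -0.14 (Nfatc2) and 0.22 (Nfkbid, adjusted p = 0.0533), with a median of 0.01. Nr4a1, an orphan nuclear receptor gene, read 1.67, 1.64 and 1.68 with IFN-4a and 1.69, 1.58 and 1.68 without it. Egr2, for a zinc finger factor, averaged 1.48 ± 0.04 with IFN-4a and 1.60 ± 0.03 without it (SD over 3 arrays), a difference of -0.12 that was not called (limma adjusted p = 0.36) and was -0.30 after quantile normalization, where it was called (adjusted p = 0.013). Both were named after their values had been seen. Under quantile normalization 1 of the 26 rose and 2 fell.

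Surface genes of activation and inhibition changed little, where 2.02% of all genes rose and 1.46% fell. Of 18 costimulation and activation genes, 2 rose and none fell: Ly6c2, a surface marker of activated and memory CD8+ T cells, by 1.52 (0.73, 0.80 and 0.81 against -0.76, -0.75 and -0.73), and the transferrin receptor gene Tfrc by 0.25, a call lost when array 3 without IFN-4a or any array with it was dropped, and under quantile normalization, where its change was 0.09 (adjusted p = 0.402). Cd69, the early activation marker, read 0.72, 0.67 and 0.65 with IFN-4a and 0.38, 0.38 and 0.36 without it. Its groups did not overlap, but the difference of 0.31 did not pass the test (adjusted p = 0.113). It passed with only the 2 stimulated groups fitted (adjusted p = 0.0176) and under 4 other alternatives. Under quantile normalization 1 of the 18 costimulation and activation genes rose and 2 fell. Of 18 coinhibitory genes, 2 rose and none fell. Lgals9, which encodes galectin-9, a ligand of TIM-3, read 0.48, 0.56 and 0.61 against -0.63, -0.63 and -0.53, a rise of 1.15 (2.22-fold, adjusted p = 8.64e-08). Lag3, for an inhibitory receptor that binds MHC class II, rose by 0.43 with an adjusted p of 0.0474, a call lost when any of 9 single arrays was dropped. Cd274, which encodes PD-L1, read 0.48, 0.43 and 0.56 against 0.55, 0.48 and 0.39, with overlapping arrays and a difference of 0.02 (SE 0.08).

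**Figure D2:**
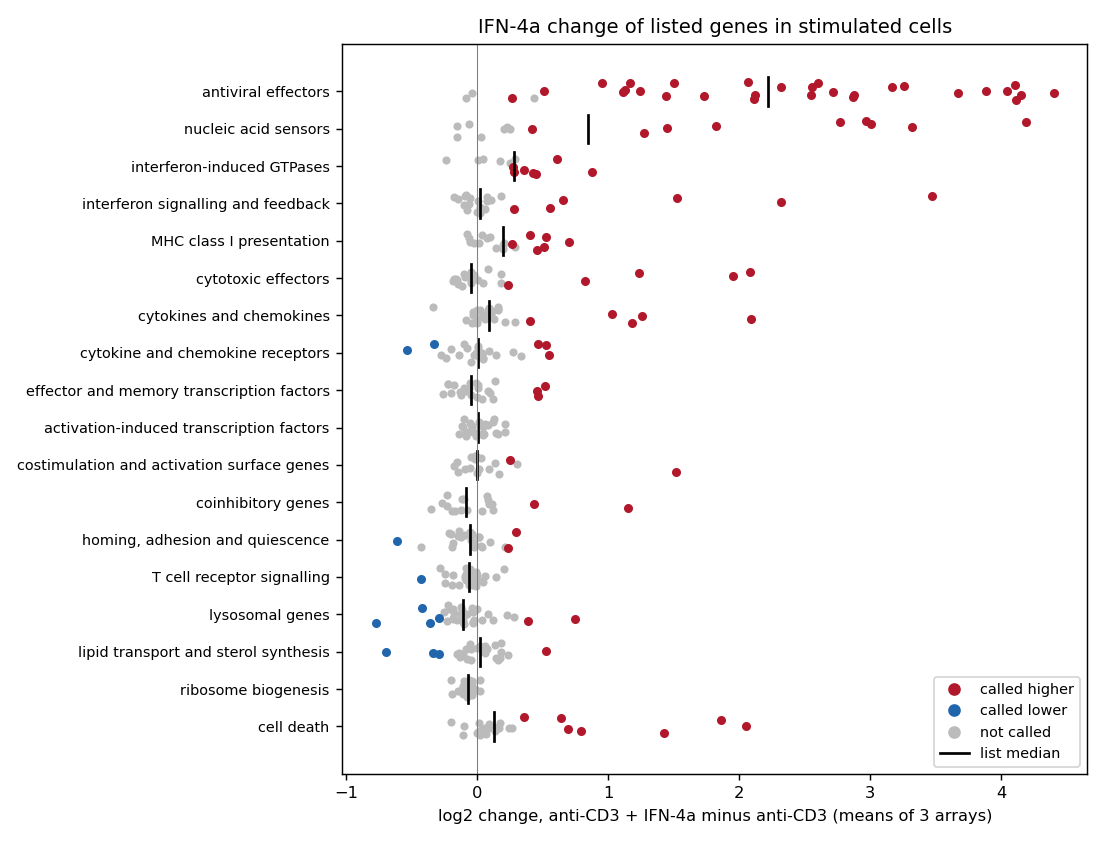
IFN-4a changes in anti-CD3-stimulated cells for the measured members of 18 gene lists, on the log2 scale; each point is a gene, coloured where it passed limma's test (red higher, blue lower), and the bar is the list's median. The antiviral list is centred on 2.22, while the medians of the cytotoxic, cytokine and both transcription factor lists lie between -0.046 and 0.095. Single genes of the cytotoxic and cytokine lists lie far from those medians, at up to 2.08 and 2.09. The activation-induced transcription factor genes all lie between -0.14 and 0.22.

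The 20 largest named decreases in stimulated cells lay between -0.79 and -0.53, and several of them were larger after quantile normalization. There, Cyp2s1 and Sgsh were both at -1.30, Slc9a9 at -1.14, Itgb7 at -1.13, Zfp97 at -0.95 and Slc26a11 at -0.87. Cyp2s1, a cytochrome P450 gene, read -0.77, -0.86 and -0.53 with IFN-4a and averaged 0.06 without it, a change of -0.79 (1.72-fold, SE 0.13, adjusted p = 0.00235). Sgsh, which encodes a lysosomal sulfatase that degrades heparan sulfate, read -0.71, -0.78 and -0.62 with IFN-4a and -0.01, 0.01 and 0.20 without it, a change of -0.77 (1.7-fold, SE 0.10, adjusted p = 0.000299). Abcg3, a transporter gene of the ABC superfamily, read -0.46, -0.42 and -0.43 against 0.14, 0.23 and 0.47, a change of -0.72 (adjusted p = 3.17e-05). In all of these the 3 arrays with IFN-4a were below the 3 without it, which the rule that picked them required.

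Other large decreases were seen in single genes of varied function. Dusp4, a dual-specificity phosphatase gene that acts on MAP kinases, averaged 0.83 ± 0.14 with IFN-4a and 1.45 ± 0.14 without it (SD over 3 arrays; -0.62, adjusted p = 0.0273, a call lost when array 1 or 3 with IFN-4a or array 2 or 3 without it was dropped). Stap1, an adaptor gene of lymphocyte signalling, averaged 0.40 ± 0.02 with IFN-4a and 1.03 ± 0.04 without it (SD over 3 arrays; -0.63, SE 0.06, adjusted p = 1.35e-05). Itgb7, for the integrin beta 7 chain that pairs for gut homing, read -0.87, -0.54 and -0.64 against -0.13, -0.09 and -0.02 (-0.61, adjusted p = 0.000331). Sit1, a transmembrane adaptor gene that restrains receptor signals, fell by 0.57, and Sytl2, for a synaptotagmin-like protein of granule transport, fell by 0.54.

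Pltp, for phospholipid transfer protein, read -0.06, 0.04 and 0.06 with IFN-4a and 0.82, 0.73 and 0.57 without it (-0.69, 1.62-fold, adjusted p = 0.00234). Olr1, for the receptor of oxidised low-density lipoprotein, read 0.08, 0.48 and 0.19 against 0.85, 0.91 and 1.13 (-0.71, adjusted p = 0.000823). Acer3, an alkaline ceramidase gene, fell by 0.54. The solute carrier genes Slc9a9, Slc26a11 and Slc25a23 fell by 0.59, 0.57 and 0.57. The rest of the 20 were Lyrm7 at -0.58, Mmgt1 at -0.56, the zinc finger genes Zfp932 and Zfp97 at -0.59 and -0.56, and the vomeronasal receptor gene Vmn1r129 at -0.66. The calls of Vmn1r129 and Zfp97 were lost when any of several single arrays was dropped, and that of Sit1 under quantile normalization, at -1.36 (adjusted p = 0.0979).

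**Figure D3:**
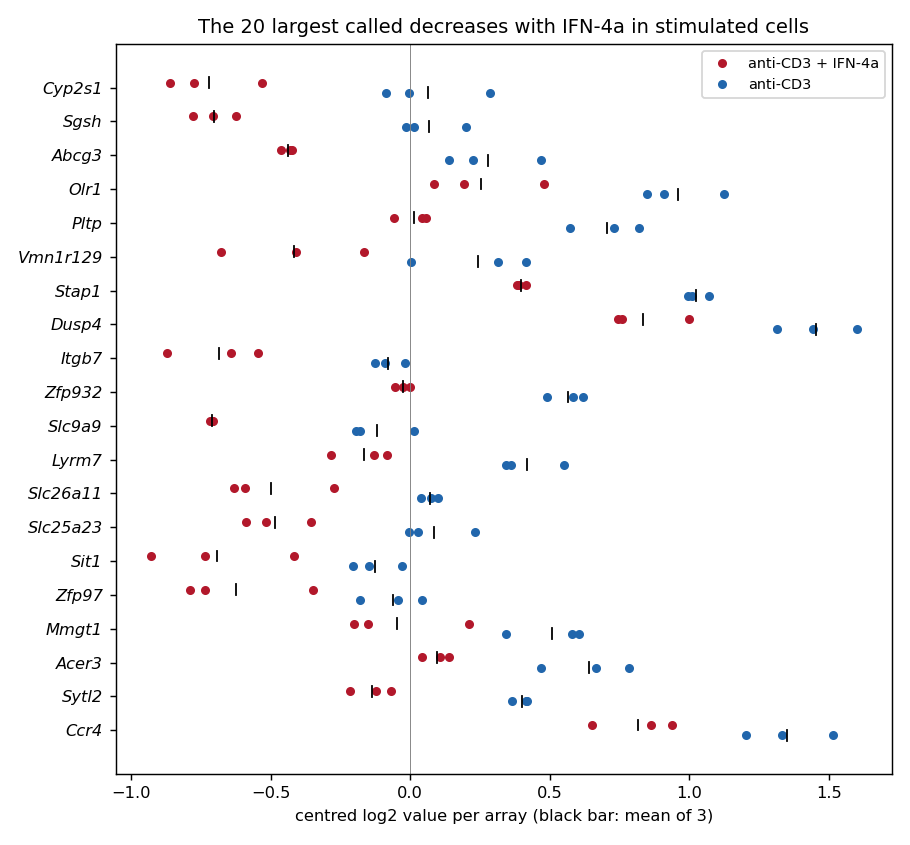
Deposited log2 values, centred per row, of the 20 named genes with the largest decreases, with anti-CD3 with IFN-4a arrays drawn above anti-CD3 arrays for each gene. Points are arrays. Groups do not overlap in any of the 20 because the rule that picked them required it, and 21.1% of all genes have no overlap. Changes run between -0.79 (Cyp2s1) and -0.53 (Ccr4).

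Some lists held lowered genes. All lists were chosen with earlier results of these data known, so their counts are no test of a list. Against 1.46% of all genes that fell and 2.02% that rose, 4 of 33 measured lysosomal genes fell and 2 rose, with a median of -0.11. Those that fell were Sgsh, Ctsa by 0.42, which encodes protective protein/cathepsin A, Ids by 0.36 (-0.57 after quantile normalization), another sulfatase gene, and Tpp1 by 0.29, a tripeptidase gene. The calls of Ids and Tpp1 were lost when single arrays of either group were dropped. Those that rose were the protease gene Ctss, by 0.75, and the cholesterol carrier gene Npc2, by 0.39. Under quantile normalization 8 lysosomal genes fell and 2 rose. In the list of lipid transport and sterol synthesis 3 of 27 fell and 1 rose: Pltp, the fatty acid elongase gene Elovl6 by 0.33 (-0.58 after quantile normalization), the last enzyme gene of cholesterol synthesis Dhcr7 by 0.29, and upward the cholesterol exporter gene Abca1 by 0.53, whose call was lost when any of 4 single arrays was dropped. The median of that list was 0.03.

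Of 28 genes of T cell receptor signalling 1 fell and none rose, with a median of -0.06, where 1.46% of all genes fell and 2.02% rose. The member that fell was Ubash3b, which encodes a phosphatase that restrains ZAP-70 (0.55 ± 0.03 with IFN-4a against 0.97 ± 0.08 without it, SD over 3 arrays, -0.42, adjusted p = 0.00775). Under quantile normalization 5 of the 28 fell. Of 24 genes of homing, adhesion and quiescence, Pecam1 rose by 0.30 (0.48 after quantile normalization) and Slfn2 by 0.23, and Itgb7 fell. The Slfn2 call was lost when any array with IFN-4a was dropped. Under quantile normalization 2 of the 24 homing, adhesion and quiescence genes rose and 2 fell. No gene of ribosome biogenesis passed limma's test among 29 measured. At an unadjusted p under 0.05 there were 0 higher and 3 lower, where 15.1% of all genes had such a p. The changes of the 29 ran between -0.20 (Wdr12, adjusted p = 0.0607) and 0.02 (Rrs1), with a median of -0.07.

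The IFN-4a response of stimulated cells was then set beside that of resting cells, which uses none of the same arrays. There, 2798 genes were called (12.6%), of which 942 rose (4.25%) and 1856 fell (8.37%). Of the genes raised in stimulated cells 371 also rose in resting cells, which is 83.0% of the stimulated and 39.4% of the resting list. Of the lowered genes 215 also fell in resting cells, 66.4% of the stimulated and 11.6% of the resting list. Among the 215 were Sgsh, Abcg3 and Itgb7, with resting changes of -0.90, -0.65 and -0.62. Cyp2s1, Pltp and Dusp4 had no called change in resting cells. A change in opposite directions was seen in 3 genes. Across all 22180 genes the changes in the 2 states had a Pearson correlation of 0.766 and a Spearman correlation of 0.47. Genes are not independent replicates, and the arrays share a row centring.

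The difference between the responses was tested for each gene as an interaction, which subtracts the resting from the stimulated response. It was called in 209 genes (0.942%), above 0 in 66 (0.298%) and below 0 in 143 (0.645%). With array 2 of the PBS with IFN-4a group dropped it was called in 137, and the resting change in 1753 genes. Of the 447 raised genes 85 had a difference below 0 and 19 above it. Of the 324 lowered genes 6 had one below and 4 above 0. Below 0, 85 genes rose in both states and 52 rose in resting cells without a call in stimulated cells. Above 0, 43 of the 66 genes fell in resting cells without a call in stimulated cells.

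Among the 18 lists, the GTPases held differences below 0 most often, in 12 of 13 genes, against 0.645% of all genes. Each of the 13 rose in resting cells, and the median change was 0.28 in stimulated and 2.22 in resting cells. Iigp1, an immunity-related GTPase gene, read 0.33, 0.34 and 0.52 with anti-CD3 and IFN-4a, 0.02, -0.02 and 0.12 with anti-CD3, -0.15, 0.03 and -0.19 with PBS and IFN-4a, and -4.35, -4.55 and -4.36 with PBS. The PBS arrays stood alone, more than 4 log2 units below the rest, and the interaction was -3.96 (adjusted p = 2.38e-10). Igtp read 0.14, 0.04 and 0.11 with anti-CD3 and IFN-4a, 0.06, 0.08 and 0.01 with anti-CD3, -0.03, -0.01 and -0.26 with PBS and IFN-4a, and -2.61, -2.56 and -2.30 with PBS. Here too the PBS arrays were low and the other 3 groups close to each other (interaction -2.34). Gbp10 and Gbp5 had interactions of -2.56 and -2.45 with the same layout. After quantile normalization the interactions were smaller but still called, at -2.34 for Iigp1, -1.45 for Igtp, -1.53 for Gbp10 and -1.49 for Gbp5.

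Cd274 had -0.56, -0.39 and -0.68 with PBS and IFN-4a and -2.76, -2.91 and -2.72 with PBS, so that it rose by 2.25 in resting cells and its interaction was -2.24 (adjusted p = 6.82e-08). Cxcl10 rose in both states, by 2.09 in stimulated and 5.24 in resting cells. Its arrays with IFN-4a were close, at 1.08, 1.31 and 1.20 with anti-CD3 and 1.04, 1.05 and 0.77 with PBS, whereas without IFN-4a they read -0.86, -0.77 and -1.06 with anti-CD3 and -4.36, -4.23 and -4.26 with PBS. Oasl2 and H2-T24 had interactions of -2.31 and -2.24 and also rose in both states. Quantile normalization reduced the interactions to -1.31 for Cd274, -1.60 for Cxcl10, -1.06 for Oasl2 and -1.16 for H2-T24, all still called. Cd69 and Il2ra, not called in stimulated cells, rose in resting cells by 1.16 and 0.98, and their interactions were -0.85 and -0.97. The call of the Il2ra interaction was lost when any of 9 single arrays was dropped. Quantile normalization ended the calls of both interactions and of those of Ifit1, Cmpk2, Usp18, Oas3, Ifih1, Irf7, Stat2, Pml, Casp4, H2-T23 and Gbp11. It also ended the interaction calls of Ddx60, Tnfsf10 and Vmn1r20, and it turned the interactions of Oas2 and Dhx58 to 0.12 and 0.14, uncalled. The interactions of Mx2, Mx1, Rsad2 and Isg15 were between -0.23 and -0.02 and were not called.

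**Figure D4:**
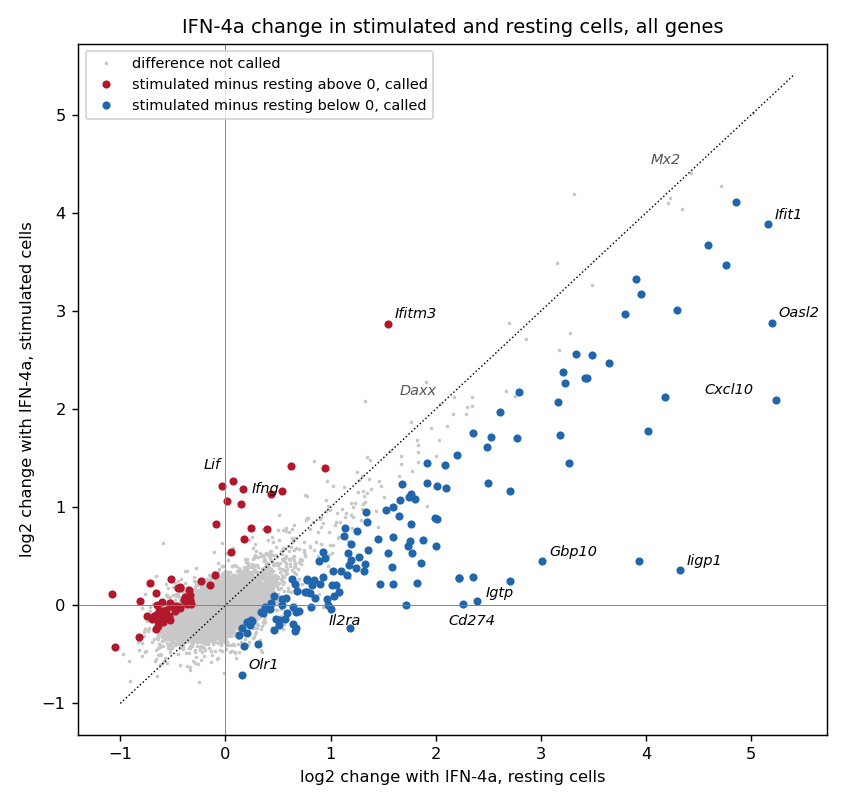
IFN-4a change in stimulated cells (vertical axis) against that in resting cells (horizontal axis), both as log2 differences, for the 22180 genes tested; coloured points passed the interaction test (red above 0, blue below 0) and the dotted line marks equal changes. Iigp1, at 0.36 in stimulated and 4.32 in resting cells, lies far below the line, and Ifng, at 1.18 and 0.17, above it.

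Fewer genes had the larger response in stimulated cells. Ifitm3, which encodes a membrane protein that blocks entry of enveloped viruses, read 2.14, 2.25 and 2.12 with anti-CD3 and IFN-4a, -0.73, -0.76 and -0.62 with anti-CD3, 0.69, 0.67 and 0.62 with PBS and IFN-4a, and -0.81, -0.81 and -1.03 with PBS. It rose by 2.87 in stimulated and 1.54 in resting cells (interaction 1.33, limma adjusted p = 4.39e-06). Ifng, Lif and Il3 had changes of 0.17, 0.07 and 0.14 in resting cells, none of them called, and their interactions were 1.01, 1.19 and 0.89 with adjusted p of 0.00112, 0.000504 and 0.00126. Lif read -0.36, -0.42 and -0.55 on the PBS with IFN-4a arrays and -0.67, -0.59 and -0.27 on the PBS arrays, which overlap.

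Gzmc had an interaction of 0.92 (adjusted p = 0.0164; 0.0541 with array 2 of the PBS with IFN-4a group dropped). Those of Gzmb and Gzma were 0.75 and -0.33 and were not called, so a difference between states was not shown for them. Hspa1b, an inducible heat shock protein gene, read 1.18, 1.45 and 0.69 with anti-CD3 and IFN-4a and -0.19, -0.04 and -0.10 with anti-CD3, with an interaction of 1.25 (adjusted p = 0.00832). Lipg, an endothelial lipase gene, rose by 1.06 in stimulated cells and had an interaction of 1.04. Tfrc rose in stimulated and fell in resting cells, by 0.23, with an interaction of 0.48. The decrease of Ubash3b was smaller in stimulated than in resting cells, where it fell by 1.05 (interaction 0.62, a call lost when array 1 or 2 of the PBS with IFN-4a group was dropped). Olr1 fell in stimulated cells and had a change of 0.15, not called, in resting cells (interaction -0.86). The interactions of Tbx21, Eomes and Id2 were 0.13, 0.43 and 0.09 and were not called.

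**Figure D5:**
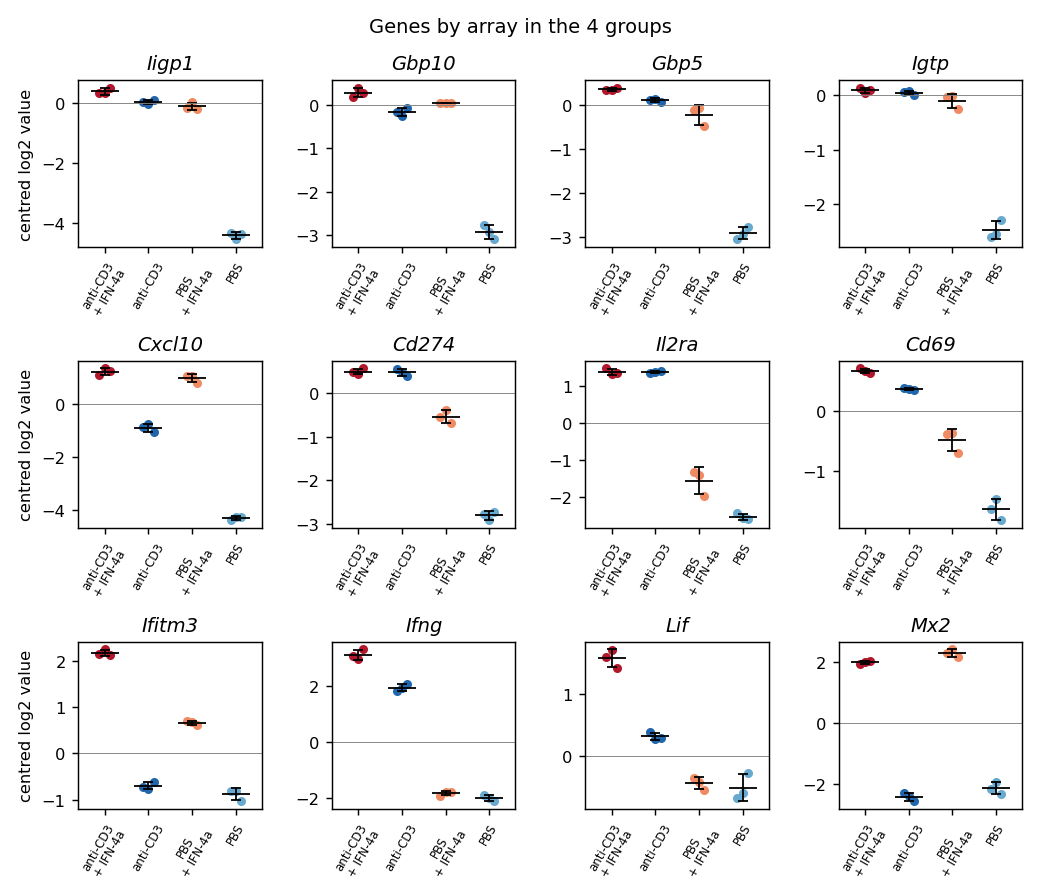
Deposited log2 values, centred per row, of 12 genes on all 12 arrays in their 4 groups; points are arrays and bars are group means. For Iigp1, Gbp10, Gbp5, Igtp and Cd274 the PBS arrays are low and the other 3 groups lie higher, while Ifng and Lif are highest with anti-CD3 and IFN-4a.

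Defining markers of CD8+ T cells were measured but their levels cannot be read from centred values. Cd8a, Cd8b1 and Cd3e differed between the groups by 0.12, 0.06 and -0.06, none of them called. Of 58 measured genes in 7 marker lists (for CD8 and CD4 T cells, NK cells, B cells, granulocytes, myeloid cells, and erythroid cells or platelets) none was called by limma. At an unadjusted p under 0.05 there were 3 higher and 1 lower, where 15.1% of all genes had such a p. The changes of the 58 ran between -0.19 (Itgax) and 0.24 (Elane). Whether such cells were present in equal numbers cannot be told from these values.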

How the data were processed

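RNA was measured on 12 Affymetrix arrays of CD8+ T cells, labelled with a WT Plus kit per the labels' protocols. The authors deposited log values, read as log2, with each row centred on its 12-array median (largest absolute row median 5e-07). For the log base, normalization and software, the sources used here give nothing; with a natural log every fold would be larger. Centred values give no level and no signal over background.

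Of 33793 rows, 23521 have 1 gene symbol in the platform annotation, 1814 have several and 8458 have none. The rows with 1 symbol covered 22180 genes, and the rows of the 1082 genes with several rows were averaged. RefSeq of GRCm38.p6 held 21994 of the genes by Entrez identifier, all with the same symbol. A mean per group over all 12 arrays was fitted with limma 3.58.1 in R 4.3.3, with moderated two-sided tests and Benjamini-Hochberg adjustment over all genes; the script was tested on simulated data. Alternatives were the highest row of a gene, each row by itself, quantile normalization, only the 2 groups compared, array weights, a robust variance prior, a replicate block, only rows with an original value of at least 8 on 6 arrays (bright rows, read from the decimal steps), and each array left out in turn. Quantile normalization was run on the centred values, so it gave every array the same distribution of centred values. How far that rescaling itself moved calls or signs was not tested. The highest row was picked by its mean centred value, which does not rank rows by signal. Same-numbered arrays of the 2 stimulated groups had correlated deviations of 0.267, 0.034 and -0.018, so the numbers were not taken to pair them. Over all pairs of groups such values ran between -0.072 and 0.267, and those of differently numbered arrays between -0.251 and 0.185.

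Members and gene lists were chosen with earlier results of these data known. The 18 lists held 483 genes, of which 433 were measured, 2 through another symbol. Genes were named by rule: the 15 largest called increases and 20 largest called decreases without overlap between arrays, without predicted genes, small RNAs or receptor segments; up to 6 called members of a list, or the 2 largest changes where none was called; the 8 largest interactions in each direction; and Ifit1, Isg15, Mx1, Irf7, Ifng, Gzmb, Prf1, Tbx21, Eomes, Il2, Cd69, Il2ra, Cd8a, Cd8b1 and Cd3e. Tnf, Ccl3, Xcl1, Irf4, Nr4a1 and Egr2 were added after their values were seen, and the lowest and highest uncalled members of lists are named as range ends. Rows with several symbols or none were left out.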

Additional observations from a re-analysis of the deposited data

Results flagged for a closer look

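The named genes below stand out because their IFN-4a change differed between stimulated and resting cells by the interaction test of limma (adjusted p under 0.05), given as the change in stimulated minus that in resting cells on the log2 scale.

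Among genes with the larger change in stimulated cells, the interaction was Ifitm3 1.33, Hspa1b 1.25, Lif 1.19, Lipg 1.04, Ifng 1.01, Gzmc 0.92, Il3 0.89 and Tfrc 0.48. Vmn1r20, a vomeronasal receptor gene that was not called in stimulated cells, had 0.94, and Ubash3b, which fell in both states, had 0.62.

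Among GTPase genes it was Iigp1 -3.96, Gbp10 -2.56, Gbp5 -2.45, Igtp -2.34, Gbp7 -1.94, Gbp3 -1.43, Gbp11 -1.39 and Gbp9 -1.14. Antiviral effector and sensor genes had Oasl2 -2.31, Ifih1 -1.29, Ifit1 -1.28, Cmpk2 -0.91, Ddx60 -0.83, Oas3 -0.78, Oas2 -0.75 and Dhx58 -0.58. In interferon signalling it was Usp18 -1.29, Irf7 -1.11, Irf9 -1.10 and Stat2 -0.67. Presentation genes had H2-T24 -2.24, Nlrc5 -1.01, H2-T23 -0.77, Psmb10 -0.42 and Tap1 -0.36. The chemokine, surface and receptor genes had Cxcl10 -3.14, Cd274 -2.24, Il2ra -0.97, Cd69 -0.85 and Olr1 -0.86, and the cell death genes Casp4 -0.90, Pml -0.65 and Tnfsf10 -0.44.

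These interactions rest on the PBS groups as much as on the stimulated ones. Of the 43, 21 were called under every alternative run, 20 lost their call under at least 1 and 2 turned their sign. The calls of Ddx60, Psmb10, Tap1, Tnfsf10, Gzmc, Ubash3b, Vmn1r20 and Il2ra were lost when at least 1 single array was dropped. No cause of the differences was tested.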

How the results depend on the processing

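Of 99 called changes of named genes in stimulated cells, 80 stayed called in the same direction under every alternative and array left out, and 19 lost their call under at least 1. The genes called numbered 1402 with array weights. The lowered genes numbered 495 with quantile normalization, 169 with only the 2 groups compared, 752 with array weights and 574 with bright rows only; the split of 447 raised and 324 lowered genes was 474 and 495 after quantile normalization. The interaction was called in 123 genes with quantile normalization and 397 with bright rows only. The fit of bright rows tested 6696 genes and not 22180, so its counts and adjusted p do not cover the same genes. With each array left out, the genes called were 489 to 763, raised genes 344 to 441, lowered genes 119 to 322, interactions 137 to 207 and genes called in resting cells 1753 to 2976, both lowest when array 2 of the PBS with IFN-4a group was dropped; tests on fewer arrays have less power by construction. With the replicate block, 882 genes were called, 723 of them shared with the 771, with 492 higher and 390 lower; the interaction was called in 221 genes and the resting change in 2911. The share of all promoters with the response element core was 3.41% in the 250 bases before the start and 3.36% with only the first listed start, an alternative chosen after seeing the data.

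Of 21 named genes that were not called in stimulated cells, 9 gained a call under at least 1 alternative (Nfkbid, Nfkbia, Wdr12, Utp14a, Cd69, Ccl3, Xcl1, Irf4 and Egr2). Signs turned in 6 of the 21, with changes of -0.0026 to 0.129, and in the called interactions of Oas2 (-0.75) and Dhx58 (-0.58). Quantile normalization gave Il2 -0.027, Il2ra -0.198 and Nr4a1 -0.213, and interactions of 0.122 for Oas2 and 0.137 for Dhx58. Array weights gave Tnf 0.0092 and Ccl3 0.0027. With each array left out, the change was -0.0226 to 0.0544 for Cd274, -0.0243 to 0.286 for Il2, -0.0381 to 0.038 for Il2ra, -0.0538 to 0.0258 for Tnf, -0.0363 to 0.0292 for Ccl3 and -0.021 to 0.0318 for Nr4a1. The cause was not tested.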
